A study of Homo sapiens with 6 samples.

Results

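The transcripts described here belong to 55 genes that act in the repair of DNA breaks and DNA crosslinks, found on the array by gene symbol from a list of names. Of the 55, 49 had at least 1 probe set annotated to them alone, among 19775 such genes on the array. All 49 had a probe set bright enough to be tested, as had 12529 genes in all. ATRIP and PMS2 were read only by probe sets that the annotation shares with another gene (TREX1 and PMS2CL), and RBBP8, BRCA2, FANCA and FANCD2 are not analysed here. The 6 samples came from HEK293, a human line made by transforming embryonic kidney cultures with adenovirus DNA. The cells were transfected for 72 h with a control siRNA (3 biological replicates) or with an siRNA against BAHD1 (3 biological replicates), with 1 array per replicate. Both groups are the same cell line and both received an siRNA with a lipid reagent, so cells without siRNA are not part of the comparison. BAHD1 is a chromatin protein that promotes compact, silent heterochromatin, and the comparison asks which transcripts differ when it is depleted.

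As background, a broken chromosome is first sensed by the MRE11-RAD50-NBN complex and by the kinases ATM and ATR, which switch on the checkpoint kinases CHEK2 and CHEK1. The ends are then either rejoined directly, through the Ku proteins (XRCC5 and XRCC6), DNA-PK and ligase IV, or cut back and copied from the sister chromatid by homologous recombination, which needs the BRCA proteins. Crosslinks between the strands are unhooked under the control of the Fanconi anaemia proteins. Much of this control acts on the proteins, and many of the genes are expressed most strongly in S and G2 phase.

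The siRNA target itself was read by 1 probe set. Control arrays read 62.9, 55.7 and 46.7, and BAHD1 siRNA arrays read 36.6, 46.8 and 41.2, so that the groups overlapped at 46.7 and 46.8. The level in BAHD1 siRNA cells was 76% of that in control cells, short of the threshold (limma, adjusted p = 0.251; exact two-sided permutation p = 0.2, where 3 against 3 arrays cannot give less than 0.1). The depletion is thus not shown by this probe set, and "BAHD1 siRNA" below means the arrays with that label. Of the genes known to be expressed in HEK293 cells, VIM was between 2652.6 and 3679.3 and itself fell by 0.32 on the log2 scale (limma, adjusted p = 0.0318). NEFL and NEFM rose by 0.37 and 0.58 (limma, adjusted p = 0.0457 and 0.0473). KRT18 was between 493 and 568.5, and KRT8 was dim, at 26.2 to 40.7. Of 8 markers of blood, liver, islet, endothelial and muscle cells HBB and PECAM1 alone had a testable probe set, with highest signals of 32.4 and 20.1. The kidney lineage gene PAX2 was dim, at 24.3 to 46.1, and its log2 fold change of 0.65 did not pass (limma, adjusted p = 0.119). The 24 probe sets for poly-A RNAs spiked in before labelling were higher on the BAHD1 siRNA arrays by 0.59 on the log2 scale (9.21 ± 0.17 against 8.63 ± 0.12, SD, n = 3 each), and 28S ribosomal RNA, read by 3 probe sets, was higher by 0.74 (5.52 ± 0.31 against 4.78 ± 0.33), with 2 of the 3 apart. The part of both in the gene values was not tested.

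Few repair genes differed between the groups. Each gene is represented by its brightest testable probe set, signals are on the deposited linear scale, and differences are log2 fold changes of signal + 1, BAHD1 siRNA minus control. Of the 49 genes, 1 passed at an adjusted p under 0.05 in the limma fit whose prior variance follows the signal: LIG3, which was lower. That is 2.04% of the genes, against 5.52% of all 12529 genes (3.06% higher and 2.46% lower). In that fit 10.2% of the 49 had an unadjusted p under 0.05, against 23.7% of all genes. In the limma fit with one variance prior for all probe sets none passed, as was so for all 27458 probe sets (0%). Its unadjusted p was under 0.05 for 4 of the 49 genes and for 4843 of the 27458 probe sets. The words rose and fell are used below only of what passed in the former fit.

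The differences were also small. The median size of the log2 fold change, regardless of sign, was 0.11 for the repair genes and 0.16 for all genes. In 41 of 49 repair genes it was under 0.25, against 69.4% of all genes, and in all 49 under 0.5, against 91.7% of all genes. The standard errors ran from 0.06 to 0.25 with a median of 0.10. The whole 95% confidence interval lay within ±0.5 for 40 of the 49 genes, against 58.8% of all genes, and within ±1 for all 49, against 89.2%. A 2-fold difference in either direction thus lies outside the interval of each of these 49 probe sets in the fit whose prior variance follows the signal. Intervals of the fit with one variance prior are not given. The interval lay within ±0.25 for 10 of them, against 13.7% of all genes. These comparisons are not matched for signal, and the repair genes are bright. With all genes cut into 4 bins by signal, 3 of the 49 were in the dimmest bin and 15 in the brightest. The 10th to 90th percentile of all genes ran from -0.34 to 0.71 in the dimmest bin and from -0.23 to 0.21 in the brightest.

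**Figure D1:**
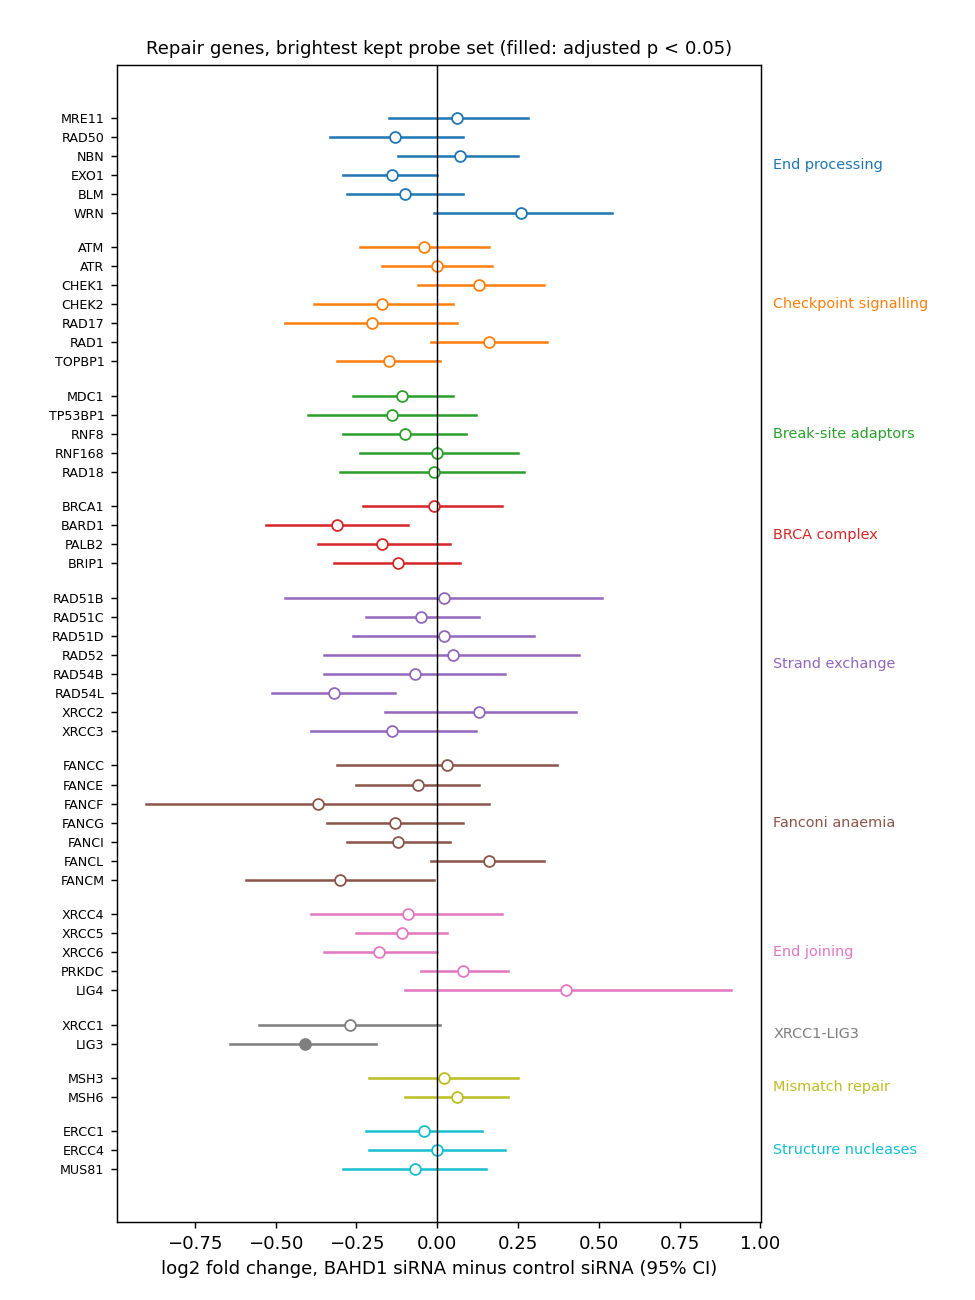
Log2 fold change (x axis, BAHD1 siRNA minus control siRNA) of the brightest testable probe set of each of the 49 repair genes, grouped by role, with bars for the 95% confidence interval (n = 3 arrays per group). LIG3, at -0.41, is the only filled point, which marks an adjusted p under 0.05, and the points run from -0.41 to 0.40.

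More of the repair genes lay below 0 than above. The log2 fold change was negative for 31 and positive for 18, 63.3% below 0 against 45.6% of all genes, with a median of -0.07 against 0.02. The list was not tested, since its members were not drawn as a sample. The shift moved with signal over the whole array: with all genes ranked by signal and cut into 4 bins of equal size, the median was 0.16, 0.04, 0.00 and -0.03 from the dimmest bin to the brightest. Of the 49, 3 were in the dimmest bin and 11, 20 and 15 in the others, with medians of 0.02, -0.01, -0.07 and -0.11. In each bin the repair genes' median was below that of all genes. After quantile normalization the medians were -0.07 for the repair genes and 0.02 for all genes. The part of the signal-dependent shift in these values was not tested further.

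**Figure D2:**
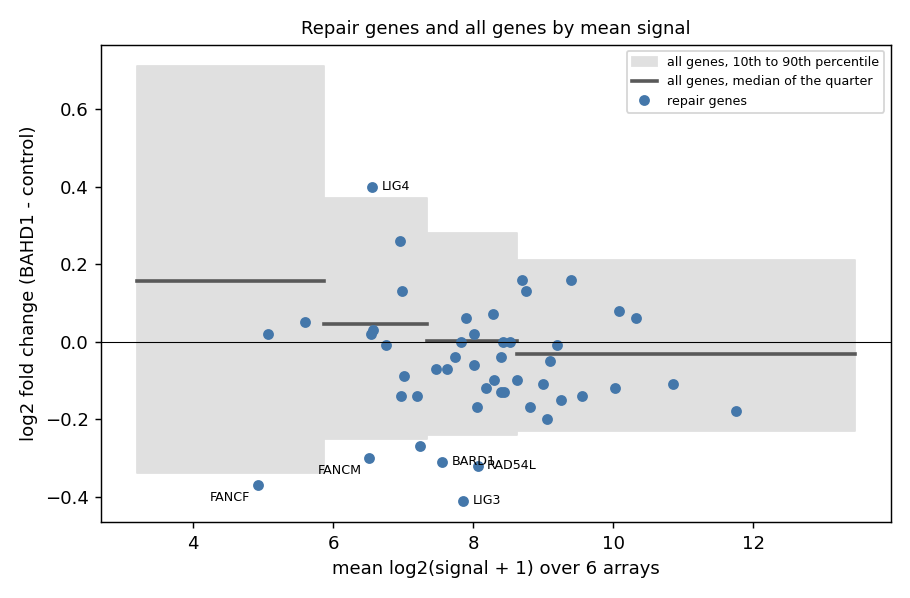
Log2 fold change (y axis, BAHD1 siRNA minus control) against mean log2(signal + 1) over the 6 arrays (x axis) for the 49 repair genes (points), over the median (line) and the 10th to 90th percentile (grey) of all 12529 genes in each of 4 bins of signal. Most points lie inside the grey band, whereas LIG3, RAD54L, BARD1, FANCM, FANCF and XRCC1 lie below it and LIG4 lies above it.

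By array, the median deviation of the 49 genes from their own 6-array means was 0.00, 0.04 and 0.03 in control replicates 1, 2 and 3 and -0.04 in each BAHD1 siRNA replicate. For all genes it was 0.00, 0.00 and -0.01 in control and 0.02, 0.01 and 0.02 in BAHD1 siRNA replicates. Neither median overlapped between the groups, the repair genes' being lower and that of all genes higher in BAHD1 siRNA arrays, and no test is given for either. In 11 of the 49 genes (22.4%) the groups did not overlap, 9 of them lower and 2 higher, whereas the share over all genes was 28.2%, with 16% higher and 12.2% lower.

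**Figure D3:**
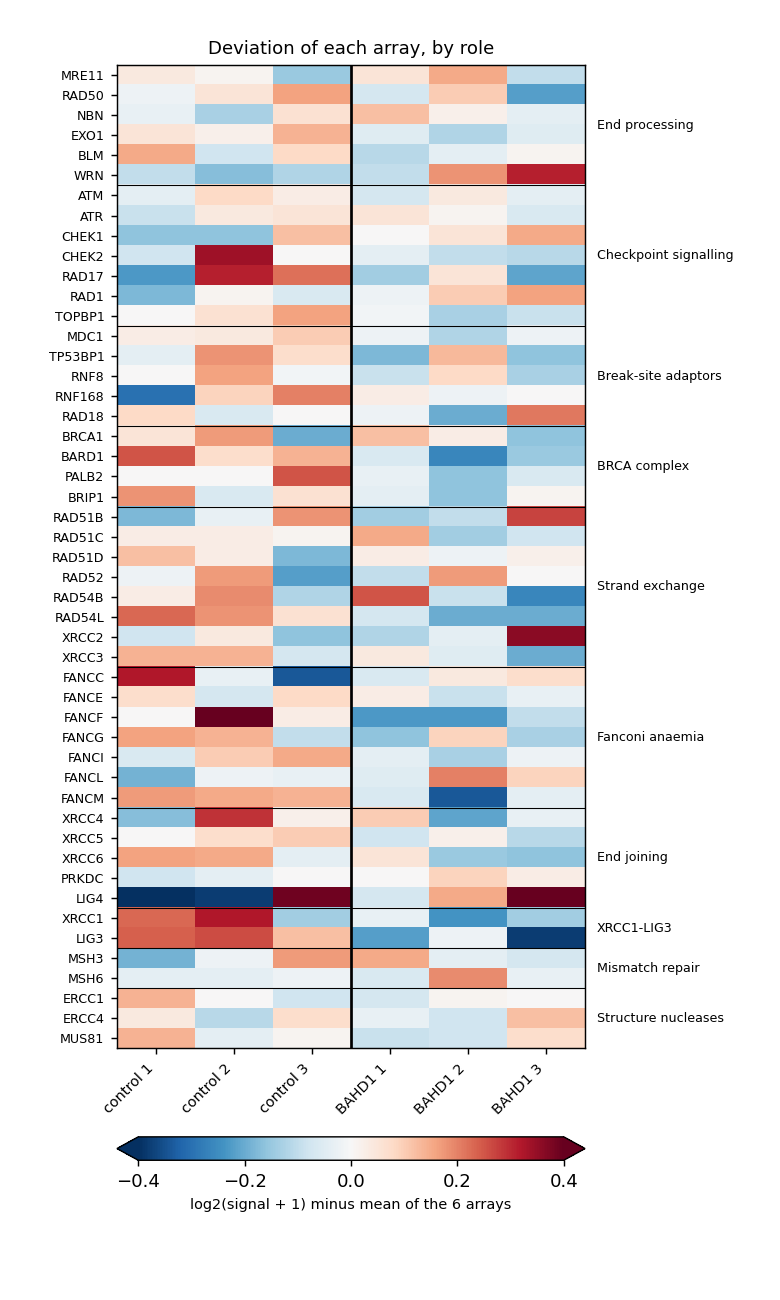
Deviation of each array from the gene's mean over the 6 arrays, in log2(signal + 1), for the 49 repair genes (rows, grouped by role) and the 6 arrays (columns; red above and blue below the mean, colours end at ±0.4). LIG3, RAD54L, BARD1 and FANCM are red in all 3 control columns and blue or near white in the BAHD1 siRNA columns, whereas most rows show no such division.

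LIG3 and XRCC1 work as a pair: XRCC1 is a scaffold that brings DNA ligase III to single-strand breaks, and the ligase also seals ends in a back-up form of end joining and maintains mitochondrial DNA. The signals of LIG3 were 273.8, 276.9 and 251.5 in control arrays and 199, 227.9 and 177.9 in BAHD1 siRNA arrays. Every BAHD1 siRNA value was below every control value. LIG3 fell to 75.2% of the control level, a log2 fold change of -0.41 ± 0.10 (SE, 3 arrays per group; limma, adjusted p = 0.0437, and 0.185 with one variance prior). The call was lost when an array was left out, with adjusted p = 0.122 without control replicate 1, 0.129 without control replicate 2, and 0.0764, 0.0573 and 0.169 without BAHD1 siRNA replicates 1, 2 and 3. It was kept without control replicate 3 (adjusted p = 0.0493), and the log2 fold change ran from -0.50 to -0.33 over these 6 fits.

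LIG3 has 4 further testable probe sets, and they did not move together. One of them lay at -0.42 ± 0.13, with signals of 220, 186.9 and 149.7 in control arrays and 143.1, 139.5 and 127.3 in BAHD1 siRNA arrays, again without overlap (limma, adjusted p = 0.0929). The others were at -0.24, -0.07 and 0.16 and did not pass. The probe set that was called has the suffix that the array's maker gives to sets with probes that may also bind other transcripts, and the median over the 5 sets was -0.24. Other sets below share this suffix, among them the brightest sets of RAD1 and XRCC4 and the only set of XRCC2. So do the ATM set at -0.27 and the RAD52 set at 1.03. XRCC1 had signals of 175.9, 186.9 and 135.9 in control arrays and 146.7, 126.2 and 135.9 in BAHD1 siRNA arrays. Its groups met at 135.9, and the log2 fold change was -0.27 with a 95% interval from -0.55 to 0.01 (limma, adjusted p = 0.249).

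**Figure D4:**
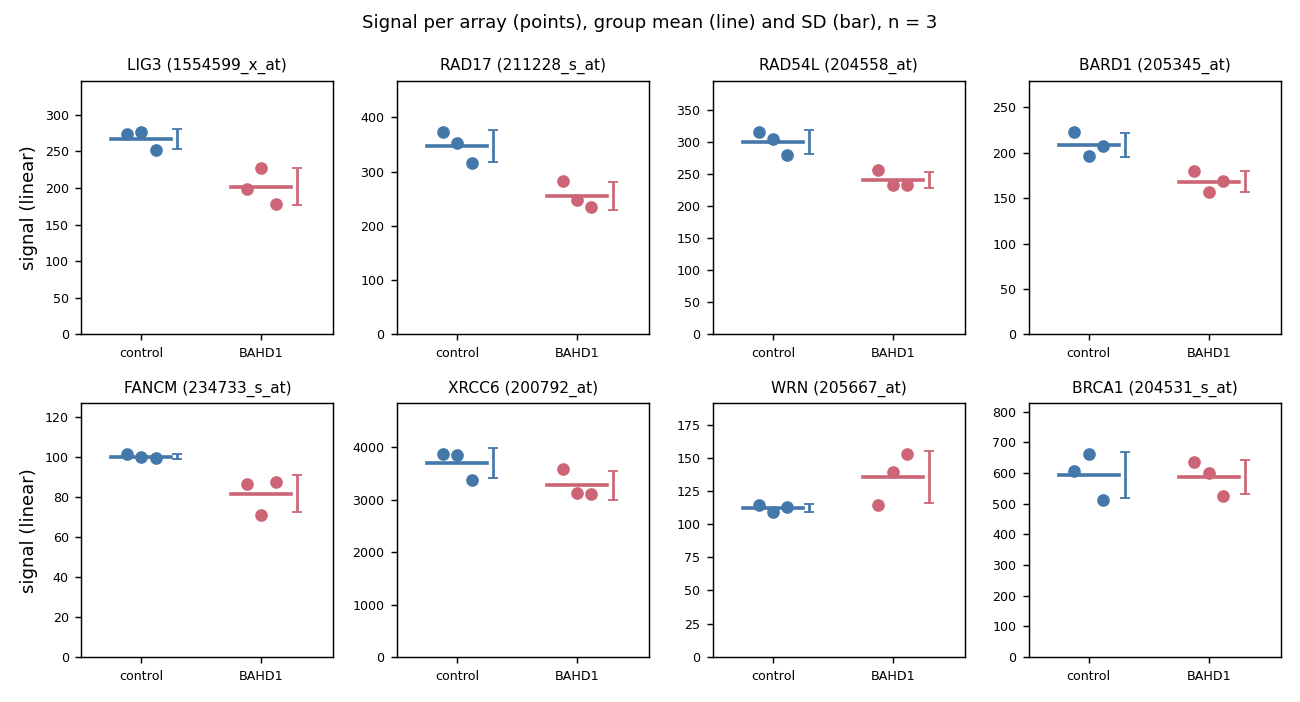
Signal on the linear scale (y axis, from 0) of 8 repair gene probe sets on each array (points; control in blue, BAHD1 siRNA in red), with the group mean (line) and SD (bar), n = 3. The groups are apart for LIG3, RAD17, RAD54L, BARD1 and FANCM, narrowly apart for WRN, and overlap for XRCC6 and BRCA1.

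Among the checkpoint genes, none of 7 passed by the brightest probe set, and 1 further probe set of RAD17 did. RAD17 loads the RAD9-RAD1-HUS1 clamp at damaged DNA so that ATR can be switched on. Its called probe set read 373.3, 353.2 and 314.9 in control arrays and 282.9, 247.3 and 234.6 in BAHD1 siRNA arrays, which did not overlap. It fell by 0.44 on the log2 scale, with an SE of 0.10 (limma, adjusted p = 0.0271, and 0.171 with one variance prior), and its adjusted p was 0.0966, 0.0881, 0.0972 and 0.111 without control replicates 1 and 2 and BAHD1 siRNA replicates 2 and 3. The other 2 sets of RAD17 were at -0.20 and -0.21 and did not pass; the brightest read 453.4, 656.6 and 618.9 in control arrays and 479.7, 548.8 and 458.7 in BAHD1 siRNA arrays, where control replicate 1 was the lowest of all 6. All 3 sets were thus below 0.

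The kinases at the head of the pathway were close to 0. ATM read 206.7, 225.2 and 217.2 in control arrays and 203.6, 219.7 and 207.6 in BAHD1 siRNA arrays, a log2 fold change of -0.04 (95% interval -0.24 to 0.16), although its 2 dimmer sets were at -0.27 and -0.30 without passing, and in the former the groups did not overlap. ATR, the kinase that answers to single-stranded DNA, read 323.3, 353 and 354.7 against 356.1, 345.6 and 329.5, at 0.00 (95% interval -0.17 to 0.17). In the brightest sets of both genes the groups overlapped. TOPBP1, which activates ATR, read 609.6, 635.7 and 678.1 against 604.4, 556.6 and 570.7, with no overlap but a difference of only -0.15 (limma, adjusted p = 0.257). RAD1, a subunit of the clamp, was at 0.16 by its brightest set and at -0.16 to 0.07 by its 4 others. CHEK1 and CHEK2, the effector kinases, were at 0.13 and -0.17, with groups that overlapped.

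The genes for the adaptors that gather around a break included no call among 5. MDC1, which binds the phosphorylated histone H2AX, read 518, 520.3 and 543.3 in control arrays and 498.9, 465.4 and 502 in BAHD1 siRNA arrays. The groups were apart by a small margin, the log2 fold change was -0.11 (95% interval -0.26 to 0.05; limma, adjusted p = 0.413), and its dimmer set was at -0.23. TP53BP1, which protects ends from being cut back, was at -0.14 (95% interval -0.40 to 0.12), and its 2 other sets were at 0.00 and 0.12. The ubiquitin ligase genes RNF8, RNF168 and RAD18 were at -0.10, 0.00 and -0.01.

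End processing gave no call among 6 genes. The exonuclease gene EXO1 read 783.4, 764.3 and 833 in control arrays and 730.2, 695.3 and 730.4 in BAHD1 siRNA arrays, so that all 3 BAHD1 siRNA values were lower. The difference was -0.14, with a 95% interval of -0.29 to 0.00 (limma, adjusted p = 0.25). The helicase gene WRN read 114.6, 108.8 and 112.5 against 114.7, 139 and 152.7, at 0.26 (95% interval -0.01 to 0.54; limma, adjusted p = 0.255). BAHD1 siRNA replicate 1 lay at the level of the highest control array, so that the gap between the groups was 0.1 signal units (114.6 against 114.7). BLM, a helicase of the same family, was at -0.10. The sensor genes MRE11, RAD50 and NBN were at 0.06, -0.13 and 0.07. A dimmer set of RAD50, however, read 82.4, 72.5 and 88.7 in control arrays and 104.9, 120.7 and 117.5 in BAHD1 siRNA arrays. It was at 0.49 ± 0.13, short of the threshold (limma, adjusted p = 0.0518). For this set the adjusted p in limma was 0.0495 with log2(signal + 16), 0.0324 with the stricter filter and 0.0361 with array weights. With one variance prior it was 0.158, with no filter 0.116, with quantile normalization 0.0601 and with array medians centred 0.0594. The replicate block gave 0.0562, and leaving out an array gave 0.0519 to 0.173.

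In the BRCA group, which couples damage signalling to recombination, all 4 measured genes had a negative log2 fold change and none passed. BARD1, the obligate partner of BRCA1 in its ubiquitin ligase, read 223.2, 196.8 and 207.1 in control arrays and 180, 156.3 and 168.8 in BAHD1 siRNA arrays, without overlap. The log2 fold change was -0.31 ± 0.10 (limma, adjusted p = 0.0994), and its 2 other sets were at -0.06 and 0.21, so the sets disagreed in sign. PALB2, which links BRCA1 to BRCA2, read 267, 266 and 316 against 261.1, 238.5 and 254.7 and was at -0.17 (95% interval -0.37 to 0.04). The groups were apart, with control replicate 3 the highest. BRCA1 itself read 606.8, 661.4 and 511.8 against 636.4, 599 and 524.8, at -0.01 (95% interval -0.23 to 0.20), and its second set was at 0.00. The helicase gene BRIP1 was at -0.12 and -0.13 by its 2 sets.

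Of the 8 strand exchange genes, 4 were above 0 and 4 below, and none passed. RAD54L, a DNA translocase of homologous recombination, came nearest. Its signals were 315.9, 304.1 and 280.1 in control arrays and 255.6, 233 and 233.3 in BAHD1 siRNA arrays, which were all lower. This gave 80.3% of the control level, or -0.32 ± 0.09 on the log2 scale (limma, adjusted p = 0.0604), from the only testable probe set. Its adjusted p in limma was 0.0498 with array medians centred, 0.036 with the stricter filter, 0.0427 with array weights and 0.0476 with the replicate block. It was 0.0662 with quantile normalization, 0.19 with one variance prior and 0.053 to 0.19 with an array left out. Its side of the threshold thus depends on the setting. The related gene RAD54B was at -0.07, and XRCC3 at -0.14 (95% interval -0.39 to 0.12). RAD51B, RAD51C, RAD51D and XRCC2, whose products act in homologous recombination, were at 0.02, -0.05, 0.02 and 0.13, with groups that overlapped. RAD51C, which read 555.9, 553.7 and 546.2 in control arrays and 600.9, 494.4 and 513.5 in BAHD1 siRNA arrays, had the wider spread in the BAHD1 siRNA group. RAD52, a strand annealing protein gene, was at 0.05 and -0.15 by its brighter sets. Its dimmest testable set was at 1.03, with control signals of 12.8, 12.8 and 7 that all lay under the filter level of 17.9, so this set was kept through the BAHD1 siRNA arrays alone.

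The Fanconi anaemia genes also held no call among 7. FANCM, a translocase that anchors the core complex to DNA, read 101.3, 99.8 and 99.2 in control arrays and 86.5, 70.8 and 87.4 in BAHD1 siRNA arrays. The controls were tightly grouped and all higher, and the log2 fold change was -0.30 ± 0.13 (limma, adjusted p = 0.221), with its 3 other sets at -0.65 to 0.00. FANCI, whose product is clamped onto DNA after ubiquitination, had 3 bright sets at -0.12, -0.24 and -0.28, none of which passed. The middle set read 867.3, 907.1 and 823.5 against 756.2, 748.9 and 694.9, with no overlap (limma, adjusted p = 0.0711). FANCL, the ubiquitin ligase of the pathway, read 590.6, 663.6 and 661 against 648.5, 773.3 and 718.3 and was at 0.16 (95% interval -0.02 to 0.33). The core complex genes FANCC, FANCE and FANCG were at 0.03, -0.06 and -0.13. FANCF, also of the core complex, was dim, and its 2 sets pointed in opposite directions. The brighter read 29.2, 42.8 and 29.9 against 24.8, 24.9 and 27.2, at -0.37 ± 0.25. The dimmer read 1.5, 9.8 and 13.5 against 20.6, 20.1 and 21, at 1.56 ± 0.69, and was kept through the BAHD1 siRNA arrays alone. In both sets the groups did not overlap, and neither passed (limma, adjusted p = 0.418 and 0.219).

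For direct end joining, no gene of 5 passed. XRCC6, which encodes the Ku70 subunit that encircles broken ends, read 3872.4, 3853.4 and 3371.8 in control arrays and 3592.4, 3122.5 and 3109.1 in BAHD1 siRNA arrays, with overlap through control replicate 3 and BAHD1 siRNA replicate 1. The log2 fold change was -0.18 ± 0.08 (limma, adjusted p = 0.226), and its Ku80 partner XRCC5 was at -0.11 and -0.13 by its 2 sets. PRKDC, the catalytic subunit of DNA-PK that Ku recruits, gave opposite answers by set. The brighter read 1021, 1047.5 and 1078.7 against 1082.9, 1147.8 and 1103.9, at 0.08 ± 0.06. The dimmer read 641, 663.3 and 595.7 against 566.3, 540.2 and 488.6, at -0.25 ± 0.08, and neither passed (limma, adjusted p = 0.484 and 0.0876). LIG4, the ligase of this pathway, read 60.6, 71.6 and 123.1 against 89.3, 104.1 and 134.2. The point estimate of 0.40 was the highest of the 49, but replicate 3 was the highest array of each group, the groups overlapped, and the 95% interval ran from -0.10 to 0.91. XRCC4, the partner of LIG4, was at -0.09 and -0.01 by its 2 brighter sets. Its dimmest testable set read 84.3, 79.5 and 97.4 against 127.4, 107.3 and 147.9, at 0.54 ± 0.14 (limma, adjusted p = 0.0509). For this set the adjusted p in limma was 0.048 with log2(signal + 16), 0.0318 with the stricter filter and 0.0297 with the replicate block. With one variance prior it was 0.183, with no filter 0.111, with quantile normalization 0.0601 and with array medians centred 0.0595. Array weights gave 0.0533, and leaving out an array gave 0.0466 to 0.211.

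MSH3 and MSH6, whose products recognise mispaired bases in mismatch repair, were at 0.02 and 0.06. A dimmer set of MSH6 read 825.2, 812 and 776.1 in control arrays and 709.4, 680.5 and 684.1 in BAHD1 siRNA arrays, at -0.22 ± 0.07 (limma, adjusted p = 0.0794), so that its sets also differed in sign. One of the sets shared between PMS2 and PMS2CL read 152.7, 172.6 and 133.2 against 114.2, 122.3 and 103.7, at -0.42 ± 0.13 (limma, adjusted p = 0.0749), and the other was at 0.07; neither can be given to PMS2 alone. The 2 testable sets shared between ATRIP and TREX1 were at -0.15 and 0.23. The nucleases that cut branched DNA were near 0 by their brightest sets: ERCC1 and ERCC4, which form one enzyme, were at -0.04 and 0.00, and MUS81 at -0.07. ERCC1 had 2 dimmer sets at 0.13 and 0.26. The last read 142.5, 146 and 125.5 in control arrays and 161.2, 173.6 and 159.6 in BAHD1 siRNA arrays, without overlap (limma, adjusted p = 0.194).

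Probe sets of one gene disagreed in sign about as often among the repair genes as over all genes. The 49 genes had 124 probe sets annotated to them alone, of which 101 were bright enough to test. Of these, 2 were called, both lower (1.98%, against 4.45% of all testable probe sets, 2.17% higher and 2.28% lower). This split depends on the setting: with log2(signal + 16), 2 sets were called higher, of RAD50 and XRCC4, beside the same 2 lower. Over all testable probe sets that setting called 658 higher and 661 lower. The groups did not overlap in 25.7% of the 101, with 7 higher and 19 lower, where the share over all testable probe sets was 25.6%. Of those 7, the sets of FANCF and RAD52 passed the filter on BAHD1 siRNA arrays but on no control array, and without them 5 were higher and 19 lower. Of the 29 genes with more than 1 testable set, 16 had sets on both sides of 0 (55.2%, against 52.6% of the 6313 genes with more than 1 testable set). Without those sets of FANCF and RAD52 it was 15 of 28. Sets close to 0, such as those of ATR and RAD51C, are among the 16. The median distance between a gene's highest and lowest set was 0.26, against 0.29 over all such genes. In PRKDC the groups were apart in both directions. The sets of BRCA1, BRIP1, ERCC4, XRCC5, ATR and MRE11 lay within 0.05 of each other. Probe positions were not used here, so whether the sets read different transcript forms was not tested.

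**Figure D5:**
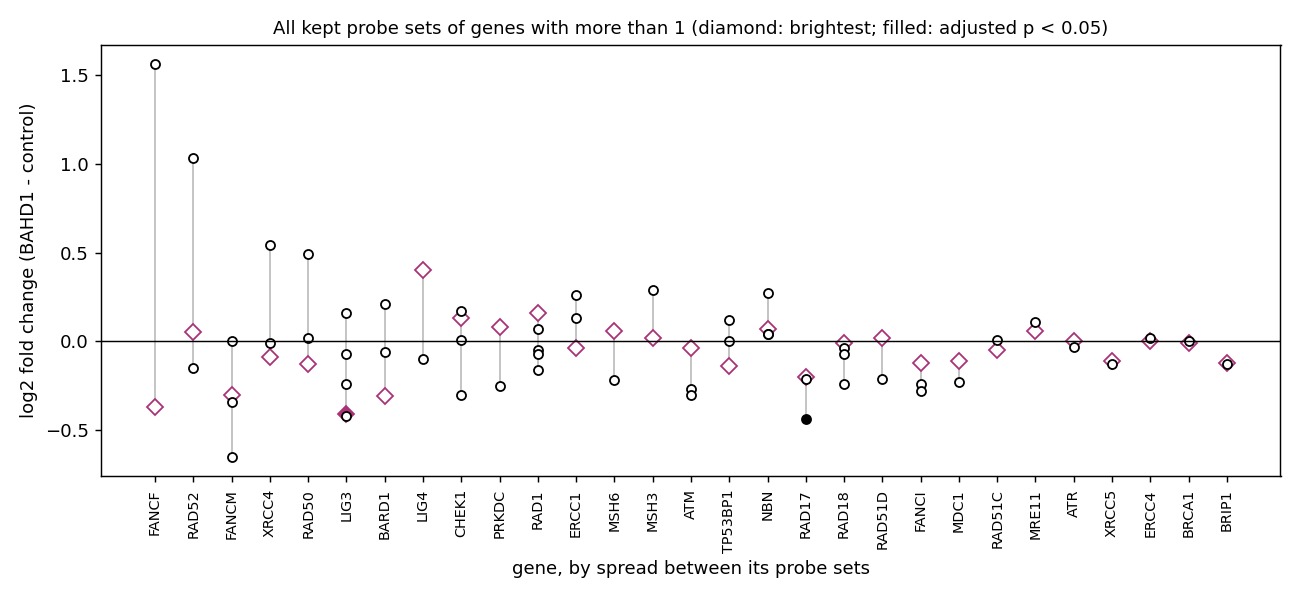
Log2 fold change (y axis, BAHD1 siRNA minus control) of every testable probe set of the 29 repair genes with more than 1, ordered by the spread between sets (diamond, the brightest set; filled, adjusted p under 0.05). The filled points are 1 set of LIG3 and 1 of RAD17, and the sets of FANCF and RAD52 reach 1.56 and 1.03.

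Outside the 55 genes, 88 further genes of the same pathways were listed, and 78 were measured. By the brightest set 4 fell, 5.13% of the 78 against 5.52% of all genes, and 21 had an unadjusted p under 0.05 (14 lower and 7 higher), 26.9% against 23.7% of all genes. Both shares are near those of all genes. Among further sets, 1 of RPA1, which coats single-stranded DNA, fell by 0.36 and 1 of SFR1 by 0.41, and 1 of the deubiquitinase gene USP1 rose by 0.31 (limma, adjusted p = 0.0226, 0.0437 and 0.0323). The brightest sets of these 3 did not pass. UBE2T, the conjugating enzyme that serves FANCL, read 1416.7, 1341 and 1133 in control arrays and 1076.7, 924 and 935 in BAHD1 siRNA arrays and fell by 0.40 on the log2 scale (limma, adjusted p = 0.0274). FEN1, a flap endonuclease of replication and repair, read 1265.6, 1212.6 and 1154.6 against 1077.1, 885.8 and 804 and also fell by 0.40 (limma, adjusted p = 0.0327), with its other set at -0.13. H2AX, the histone whose phosphorylation marks breaks, read 1001.7, 919.4 and 1039.8 against 848.1, 754.8 and 778.9 and fell by 0.31 (limma, adjusted p = 0.0333), with its 2 other sets at -0.25 and 0.20. BABAM1, a subunit of the BRCA1-A complex, read 672.2, 565.3 and 553.4 against 486.9, 459 and 454.9 and fell by 0.35 (limma, adjusted p = 0.0374). In the 4 genes called by their brightest set, every BAHD1 siRNA array was below every control array. That adds little, since the 4 were named for being called lower on these same arrays. Among the 78 genes the groups did not overlap in 34.6% (9 genes higher and 18 lower), against 28.2% of all genes (16% higher and 12.2% lower). None of the 4 passed with one variance prior (adjusted p = 0.196 to 0.209). By the brightest set, leaving out control replicate 1 or 2 gave 0 calls in limma among the 78, with 16 at an unadjusted p under 0.05 each time. Leaving out BAHD1 siRNA replicate 2 or 3 also gave 0, with 19 and 13. The number of calls was 3 without control replicate 3 and 6 without BAHD1 siRNA replicate 1. Of all 27458 probe sets, 4730 and 4921 had an unadjusted p under 0.05 without control replicates 1 and 2. Without BAHD1 siRNA replicates 2 and 3 it was 4536 and 4247.

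Since many repair genes follow the cell cycle, markers of proliferation are given beside them. Of 15 such markers, TYMS, which makes thymidylate for DNA synthesis, fell by 0.25 on the log2 scale (limma, adjusted p = 0.0474) and the others did not pass; 10 were below 0 and 5 above, with a median of -0.10. The 1 call is 6.67% of the list, against 5.52% of all genes. In TYMS, E2F1, CDK1 and MCM2 the groups did not overlap, all lower, with E2F1 at -0.38, CDK1 at -0.16 and MCM2 at -0.11. That is 26.7% of the 15 markers, near the 28.2% of all genes (16% higher and 12.2% lower). MKI67 and PCNA were at -0.09 and -0.03. The part of the cell cycle in the repair gene values was not tested. Of 14 measured target genes of p53, a damage-responsive factor that adenovirus proteins bind in HEK293 cells, 1 rose by its brightest set (7.14%, against 5.52% of all genes): RRM2B, which encodes a ribonucleotide reductase subunit, by 0.67 ± 0.13 (limma, adjusted p = 0.0153). BAX, which promotes cell death, was at -0.37 by its brightest set (limma, adjusted p = 0.0743), with no overlap, and its second set fell by 0.38 (limma, adjusted p = 0.0487). CDKN1A, a p53 target that blocks the cell cycle, read 235.7, 220.5 and 212.4 in control arrays and 209.2, 215.9 and 236.6 in BAHD1 siRNA arrays, and was at -0.02. MDM2 was at 0.04, and the median of the 14 was 0.04.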

How the data were processed

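Total RNA of 6 samples was labelled with biotin and hybridised to 1 array each, per the labels' protocols. GCOS and GCRMA are named in the submitters' processing notes, with no version or role. In the deposited table the authors give a linear intensity for each probe set on each array. The mean of each column without its outer 2% at each end was 100, as GCOS scales arrays. The sources used here do not say which program wrote the table, and detection calls were not used.

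The members, lists and tests were chosen with earlier results of these data known. Control probe sets (62 of 54675) were left out. A probe set was kept (testable) when its signal was above the median of 17.9 on at least 3 of 6 arrays, which left 27458. Gene symbols come from the platform annotation, and 0 needed an update from the RefSeq table of assembly GRCh38.p14. A gene stands by its brightest kept probe set annotated to it alone. Values were compared as log2(signal + 1), which shrinks differences of dim probe sets, in R 4.3.3 with limma 3.58.1 (eBayes with trend and robust; one prior as an alternative, known to call none), with Benjamini-Hochberg adjustment over all kept probe sets at 0.05. On arrays simulated from the 27458 probe set means with 200 changed, this fit recovered 50.1%, 79.8% and 92.9% of log2 changes of 0.5, 1 and 2, with 4.16% of calls false. The simulated noise was normal, independent between arrays and set at this fit's own prior variance, so a low false share was built in. These shares were not measured on the real arrays, which also hold array-wide differences between the groups. The number of arrays limits precision.

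Genes named are those with a called probe set, those whose groups do not overlap, and the 2 smallest p-values of each role; other members and their dimmer sets were named after their values were seen. Alternatives were one prior, a filter at the 75th percentile or none, quantile normalization, centred array medians, log2(signal + 16), array weights, the replicate number as a block, the median of a gene's sets, and each array left out.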

Additional observations from a re-analysis of the deposited data

Results flagged for a closer look

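The 24 probe sets for the poly-A RNAs spiked in before labelling, which enter none of the gene comparisons, were higher on the BAHD1 siRNA arrays than on the control arrays by 0.59 on the log2 scale, and in each of the 24 the groups were apart (two-sided exact permutation p = 0.1, and 3 against 3 arrays can give no less). 28S ribosomal RNA, read by 3 probe sets, was higher by 0.74 (two-sided exact permutation p = 0.1). The 18 spikes added after labelling differed by -0.15, with overlap (exact two-sided permutation p = 0.4).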

How the results depend on the processing

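The median log2 fold change of the repair genes stayed negative under every alternative run, between -0.09 and -0.04, and LIG3, H2AX, BABAM1, UBE2T, FEN1 and BAHD1 kept their sign. One variance prior, no filter and the replicate block cannot change a log2 fold change here. LIG3, H2AX, BABAM1, UBE2T and FEN1 were named because they were called lower on these arrays, so their kept sign adds little. The number of repair genes called was 0 with one variance prior and 0 with no filter (4 and 5 with an unadjusted p under 0.05 in limma), and 2 with the stricter filter, with array medians centred, with array weights and with the replicate block, and 0 to 1 with an array left out. In each setting with 2 the calls were LIG3 and RAD54L. Over all 101 testable sets of the repair genes, 0 higher and 2 lower were called, against 2 and 5 of 76 with the stricter filter. The counts were 2 and 2 with log2(signal + 16), 1 and 3 with array weights, and 1 and 6 with the replicate block. Over all probe sets the stricter filter called 746 higher and 876 lower of 13876. Of 27458, log2(signal + 16) called 658 and 661, array weights 756 and 764, and the replicate block 813 and 816. The number of other pathway genes called was 0 with one variance prior and 0 with no filter (19 and 21 with an unadjusted p under 0.05), and 0 to 6 with an array left out. Over all 27458 testable probe sets 1221 were called, against 0 with one variance prior and 177 to 1174 with an array left out. The replicate block gave 1629, and with no filter 398 of 54613 were called. Beside the unadjusted gene counts above, 4843 probe sets had an unadjusted p under 0.05 with one variance prior, and 7273 with no filter. With array medians centred the split over all probe sets was 458 higher and 746 lower, against 596 and 625. With no filter 54613 probe sets were tested, which makes the adjustment stricter; with an array left out fewer samples enter the fit. With 3 arrays per group, the 95% interval lay within ±0.25 for 10 of the 49 genes and reached past it for the others. Same-numbered arrays of the groups did not deviate together (r = 0.01, 0.01 and 0.02 across probe sets, and not every array correlated best with its own number), so the numbers were not taken as pairs; the replicate block gave 2 repair genes and 6 other pathway genes. With BAHD1 at 0.182 to 0.506 with an array left out, its adjusted p stayed above the threshold; under the stricter filter its probe set was not tested. Detection calls were not used here, so dim sets have no stated background.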
